A study of Mus musculus with 8 samples.

Results

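Genes of the integrated stress response were followed in cultured pancreatic ductal adenocarcinoma (PDAC) cells of the mouse, 10 in number: *Atf4*, *Ddit3*, *Trib3*, *Chac1*, *Asns*, *Psat1*, *Phgdh*, *Sesn2*, *Ddit4* and *Atf5*. They were chosen by symbol, as *Atf4* itself and genes known to respond to it, and all 10 were found among the 53465 genes of the table. RNA-seq was performed on 8 libraries from 2 cell lines. Each line, B73 or B87, was derived from primary tumor tissue of a pancreas and passaged at least 5 times, so that it stands for 1 culture and not for a set of animals. The mice, made from male embryonic stem cells of mixed C57BL/6J;129 background, carried Ptf1a-Cre, which recombines in the pancreas, a reverse tetracycline transactivator (rtTA3) linked to mKate2 behind a stop cassette at Rosa26 and a tetracycline-responsive short hairpin RNA (shRNA) against *Smad4*, linked to GFP, at Col1a1; which hairpin each line carried was not given in the sources used here. Cells under continuous doxycycline (DoxOn) expressed the hairpin and were Smad4 off, and cells taken off doxycycline (Dox) for 5 days (DoxOff) were Smad4 on. TGFβ1 at 100 pM, or SB505124 at 2.5 µM, which blocks signaling by the type I TGFβ receptor, was then given for 24 h. This gave 4 groups, SB DoxOn, SB DoxOff, TGFβ1 DoxOn and TGFβ1 DoxOff, each with 1 library from each line.

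The integrated stress response begins when kinases that sense amino acid shortage, unfolded protein, double-stranded RNA or heme deficiency phosphorylate the translation factor eIF2α. General translation then falls while the *Atf4* mRNA is translated more efficiently, and the ATF4 protein switches on genes for amino acid synthesis, amino acid transport and tRNA charging, and for feedback control of growth and survival. Tetracyclines also slow translation in mitochondria, and stress of mitochondria is one of the known inputs to ATF4. The comparison of DoxOn with DoxOff cells within each treatment therefore asked whether these mRNAs were higher in cells that had received the drug. ATF4 is controlled largely at translation, and protein was not measured. Every DoxOn library also expressed the hairpin, and no library here had Dox with a control hairpin, so an effect of Dox itself and an effect of *Smad4* silencing cannot be told apart.

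Libraries held 18389235 to 23440550 counts, at which 3 counts correspond to 0.128 to 0.163 CPM (counts scaled to a common library total). In SB cells, *Smad4* stood at 33.7 (B73) and 34.9 CPM (B87) with Dox and at 97.4 and 114 CPM without. In TGFβ1 cells it stood at 34.7 and 35.5 CPM with Dox and at 117 and 115 CPM without. The targeted gene was thus lower in every DoxOn library, with log2 fold changes of -1.62 ± 0.092 (SE) under SB505124 and -1.73 ± 0.092 under TGFβ1 (edgeR, adjusted p = 0.00234 and 0.00084), which left 0.325 and 0.302 of the DoxOff level. Of the 6 epithelial markers, keratins 8, 18 and 19 were at 153 to 2428 CPM and *Cdh1* at 11.5 to 469 CPM, but *Epcam* did not exceed 2.11 CPM in any library. *Lum*, *Cd3e*, *Cpa1* and *Ptf1a* were at 0 in all 8, but other markers on their lists were not. *Cd68* (immune) ran from 1.17 to 6.29 CPM, *Cela1* (acinar) from 0.408 to 1.33 CPM, and *Pdgfrb* (fibroblast) reached 27.2 CPM. Of 3 endothelial markers, *Kdr* reached 25.2 CPM, *Cdh5* 2.76 CPM and *Pecam1* 0.214 CPM. The summed level of 5 fibroblast markers ran from 1.51 to 152 CPM in SB DoxOff, 2.50 to 43.7 in SB DoxOn, 5.87 to 647 in TGFβ1 DoxOff and 4.41 to 184 in TGFβ1 DoxOn. Most of the upper values were *Col1a1*, which reached 627 CPM, and their part in the results was not tested.

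All 10 genes were well above the counting floor in every library, the lowest count being 90 (*Chac1*). Levels between genes were compared only per kilobase of transcript (RPKM, from the transcript lengths in the table). The median RPKM over the 8 libraries was highest for *Atf4* (164), followed by *Psat1* (96.7), *Phgdh* (92.8), *Asns* (56.1), *Atf5* (31.4), *Ddit4* (28.3), *Sesn2* (10.4), *Ddit3* (8.35), *Trib3* (5.75) and *Chac1* (4.57). The enzymes of amino acid synthesis and *Atf4* itself were therefore abundant mRNAs, whereas *Ddit3*, *Trib3* and *Chac1*, which are strongly induced by overt stress in many cell types, were the scarcest of the 10. From the lowest to the highest library, CPM changed 7.21-fold for *Ddit4* and 1.38-fold for *Sesn2*, the widest and the narrowest range of the 10.

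**Figure D1:**
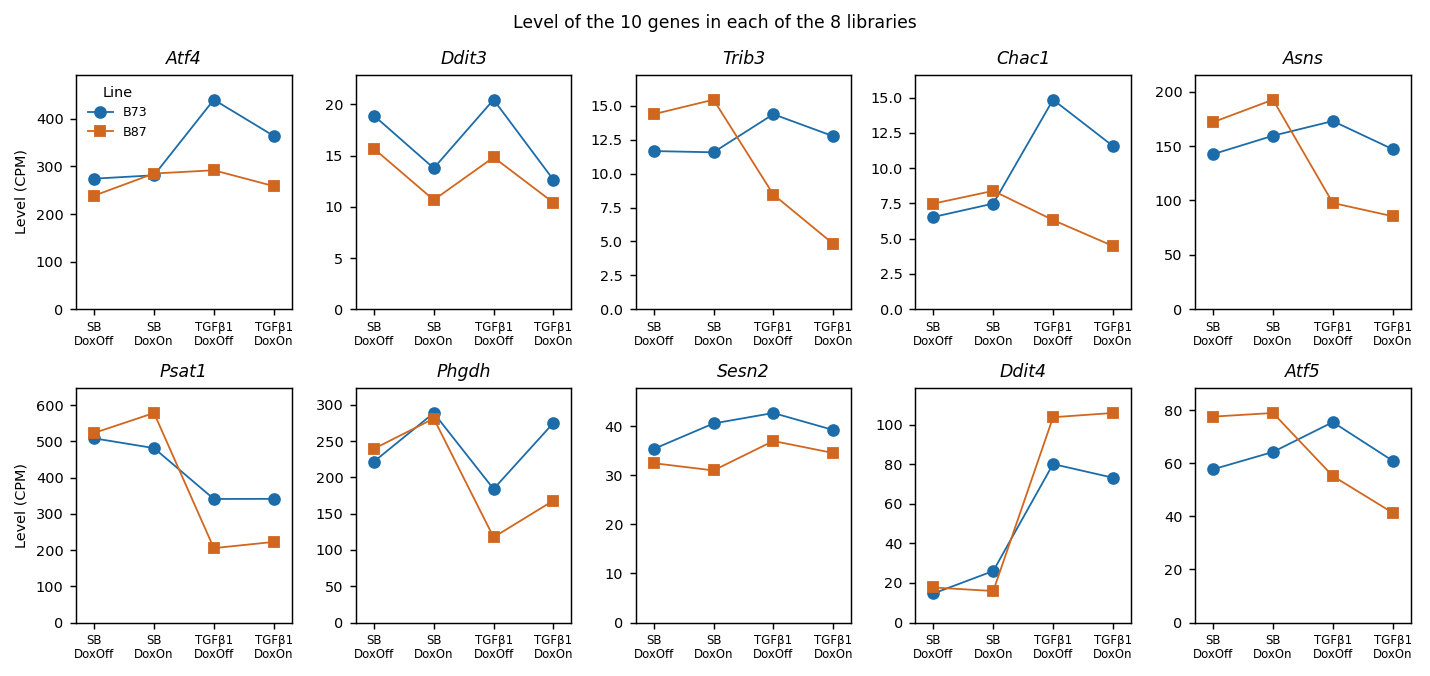
Level in CPM (vertical axis, from 0) of each of the 10 genes in the 4 groups (horizontal axis), with 1 point per library, circles for line B73 and squares for line B87; lines join the libraries of 1 cell line. *Ddit3* is lower with Dox in each pair, and *Ddit4* is high in all 4 TGFβ1 libraries. For *Chac1* and *Trib3* the lines lie close together under SB505124 and far apart under TGFβ1.

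ATF4 acts as a dimer with C/EBP proteins at a composite element, whose core was searched as TGATGCAA and, more loosely, as TGATGNAA, where N is any base. RefSeq promoter windows (GRCm38.p6, 250 bases before to 50 bases after the transcription start) were found for 10 of 10 genes. The core was present on either strand in 1 of 10, *Chac1*, against 1.03% of the 27025 genes with a window. The looser form, which includes every core match, was present in 3 of 10, *Chac1*, *Asns* and *Trib3*, against 4.51% of genes. The endoplasmic reticulum stress element (ERSE) was in 0 of 10 and in 0.137% of genes. The *Chac1* and *Asns* matches lie before the start and are given on the strand of the gene, 5′ to 3′. They are printed because the TGFβ1 effect of both genes was lower in B87 than in B73 in both Dox states. That held for 31.6% of tested genes. The 8 bases of the match are in capitals. The *Chac1* match lies on the opposite strand and begins 193 bases before the start (chr2:119351038-119351067, plus strand), and the *Asns* match begins 23 bases before it (chr6:7693214-7693243, minus strand). The *Trib3* match begins 14 bases after the start.
Chac1: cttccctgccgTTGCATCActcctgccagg
Asns: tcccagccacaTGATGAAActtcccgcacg

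Under SB505124, where receptor signaling was blocked, none of the 10 genes passed the test for a difference between DoxOn and DoxOff cells (edgeR quasi-likelihood test, adjusted p under 0.05). Of all 14301 genes tested, 0.622% were higher and 0.972% lower. At an unadjusted p under 0.05, 1 of the 10 was lower, *Ddit3*, beside 7.61% of tested genes, and 0 were higher; DESeq2 with the cell line in the model also called 0. The median log2 fold change of the 10 was 0.117, beside -0.00279 over all tested genes. Within each line 7 of the 10 values were above 0 and 3 below.

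Under TGFβ1, 1 of the 10 passed and it was lower with Dox: *Ddit3*. No gene passed as higher, by edgeR or by DESeq2 with the cell line in the model, and at an unadjusted p under 0.05 there was 1, *Phgdh*, beside 12.3% of tested genes. Of all tested genes, 3.28% were higher and 3.52% lower. The median log2 fold change was -0.222, beside 0.00733 over all tested genes, with 8 of 10 values below 0 in B73 and 7 of 10 in B87; with libraries scaled by total counts it was -0.101. The difference of the Dox effect between the treatments passed in 0 of 10 genes by edgeR or DESeq2, with 0 at an unadjusted p under 0.05, beside 0.196% of all tested genes passing and 10.4% at the unadjusted limit. In an edgeR fit added later, the lines were allowed different TGFβ1 responses. There 3 of the 10 reached an unadjusted p under 0.05 for Dox under SB505124 and 6 under TGFβ1, beside 2012 and 3608 of 14301 genes. With only the 4 libraries compared, 2 of the 10 did so under SB505124, beside 1573 of 13658 genes. Under TGFβ1 5 did, beside 3722 of 13463. These counts take higher and lower genes together. In the fit added later, the median log2 fold change of the 10 was 0.118 under SB505124 and -0.219 under TGFβ1. With only the 4 libraries compared it was 0.127 and -0.217.

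*Ddit3*, which encodes CHOP, a transcription factor of prolonged stress that promotes cell death, was lower with Dox in every pair of libraries, as 15.4% of tested genes were. In SB cells it stood at 13.8 (B73) and 10.7 CPM (B87) with Dox and at 18.9 and 15.7 CPM without. In TGFβ1 cells it stood at 12.6 and 10.4 CPM with Dox and at 20.5 and 14.8 CPM without. DoxOn and DoxOff libraries did not overlap within either treatment, which held for 16.1% of all tested genes in that direction under SB505124 and for 22.3% under TGFβ1. The log2 fold change was -0.51 ± 0.13 (SE) under SB505124 (adjusted p = 0.146) and -0.61 ± 0.13 under TGFβ1 (adjusted p = 0.0397). The call under TGFβ1 was lost without the cell line in the model (adjusted p = 0.351), when the 4 TGFβ1 libraries were fitted alone (0.0580) and when libraries were scaled by total counts (0.0673). *Ddit3* shares 68 bases with *Mars* on the opposite strand, and *Mars* had log2 fold changes of 0.02 and 0.08 with Dox under SB505124 and TGFβ1.

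*Atf4* stood in SB cells at 281 (B73) and 285 CPM (B87) with Dox and at 274 and 239 CPM without. In TGFβ1 cells it stood at 364 and 259 CPM with Dox and at 440 and 292 CPM without. The groups did not overlap under SB505124, as for 15.3% of tested genes in that direction, and overlapped under TGFβ1, and the log2 fold changes were 0.16 ± 0.15 and -0.23 ± 0.15 (adjusted p = 0.735 and 0.401). *Atf4*, *Chac1*, *Asns* and *Atf5*, 4 of the 10, had values above 0 in both lines under SB505124 and below 0 in both under TGFβ1, as 5.82% of tested genes did. The 95% interval of *Atf4* reached up to a 1.42-fold higher level with Dox under SB505124 and a 1.09-fold higher level under TGFβ1, and that of *Atf5* up to 1.58-fold and 1.17-fold. *Atf5*, a related factor that is also translated preferentially in stress and is linked to the mitochondrial unfolded protein response, stood in SB cells at 64.3 and 79.0 CPM with Dox and 57.8 and 77.6 CPM without. Its TGFβ1 libraries were at 61.0 and 41.4 CPM with Dox and 75.5 and 55.2 CPM without. These groups overlapped, and the log2 fold changes were 0.08 ± 0.24 and -0.35 ± 0.25 (adjusted p = 0.930 and 0.437). *Atf5* overlaps *Nup62* by 571 bases on the opposite strand, and *Nup62* had log2 fold changes of -0.05 and -0.09 with Dox.

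*Trib3*, a pseudokinase that feeds back on ATF4 and CHOP, and *Chac1*, which degrades glutathione, had the widest intervals of the Dox effect. *Trib3* stood at 11.6 (B73) and 15.5 CPM (B87) in SB DoxOn, 11.7 and 14.4 in SB DoxOff, 12.8 and 4.83 in TGFβ1 DoxOn and 14.4 and 8.46 in TGFβ1 DoxOff. *Chac1* stood at 7.49 and 8.39 CPM in SB DoxOn, 6.54 and 7.49 in SB DoxOff, 11.6 and 4.48 in TGFβ1 DoxOn and 14.9 and 6.32 in TGFβ1 DoxOff. For both genes the lines lay close together under SB505124 and far apart under TGFβ1. The 95% intervals of the Dox effect under SB505124 ran from 0.528 to 2.05-fold for *Trib3* and from 0.564 to 2.25-fold for *Chac1*, so that a doubling lay within both. The fit behind these intervals gives both lines the same TGFβ1 response, and unlike responses in the lines can widen them. Per line, the log2 Dox effect under SB505124 was 0.19 (B73) and 0.16 (B87) for *Chac1* and -0.01 and 0.10 for *Trib3*. Under TGFβ1 the interval of *Trib3* ran from 0.379 to 1.53-fold, and that of *Chac1* was similar in width (log2 -1.39 to 0.59).

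Of the enzymes of amino acid synthesis, *Phgdh*, the first enzyme of the serine pathway, was higher with Dox in every pair of libraries, as 15% of tested genes were. In SB cells it stood at 289 (B73) and 281 CPM (B87) with Dox and 222 and 239 CPM without. In TGFβ1 cells it stood at 275 and 168 CPM with Dox and 184 and 118 CPM without. The groups did not overlap under SB505124, as for that 15.3% of tested genes, but overlapped under TGFβ1, where the lines were further apart. The log2 fold change was 0.30 ± 0.21 under SB505124 (adjusted p = 0.622) and 0.55 ± 0.21 under TGFβ1 (adjusted p = 0.169). *Phgdh* passed under TGFβ1 when genes with low counts were kept (adjusted p = 0.0109), when the 4 TGFβ1 libraries were fitted alone (0.0140) and when the lines were allowed different responses to TGFβ1 (0.0158). Of the stretches of 75 bases in its transcripts, 35.8% are shared with another gene, chiefly *Gm7901*, so its counts are less certain.

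*Psat1*, the next enzyme of the serine pathway, was nearly level with Dox. Its SB libraries were at 481 (B73) and 578 CPM (B87) with Dox and 508 and 523 CPM without. Its TGFβ1 libraries were at 341 and 222 CPM with Dox and 341 and 205 CPM without. The log2 fold changes were 0.05 ± 0.24 under both treatments (adjusted p = 0.957 and 0.923), with intervals from 0.70 to 1.53-fold. *Asns*, asparagine synthetase, stood at 160 and 193 CPM in SB DoxOn, 143 and 172 in SB DoxOff, 147 and 85.5 in TGFβ1 DoxOn and 173 and 97.7 in TGFβ1 DoxOff. Its groups overlapped under both treatments and its upper limits were 1.82-fold and 1.40-fold.

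*Sesn2* and *Ddit4* (also called REDD1) encode brakes on the growth kinase complex mTORC1. *Sesn2* stood at 40.5 (B73) and 31.0 CPM (B87) in SB DoxOn, 35.3 and 32.4 in SB DoxOff, 39.2 and 34.5 in TGFβ1 DoxOn and 42.7 and 37.0 in TGFβ1 DoxOff. It was the most precisely measured of the 10, and an increase with Dox above 1.24-fold under SB505124 or 1.10-fold under TGFβ1 lay outside the 95% intervals. *Ddit4* stood at 26.1 and 15.9 CPM in SB DoxOn, 14.7 and 17.7 in SB DoxOff, 73.2 and 106 in TGFβ1 DoxOn and 80.1 and 104 in TGFβ1 DoxOff. Its Dox effect under SB505124 differed in sign between the lines, at 0.82 in B73 and -0.15 in B87 on the log2 scale. The difference of the Dox effect between the lines, tested over both treatments, passed in 0 of 10 genes, with 0 at an unadjusted p under 0.05 (edgeR), beside 0.406% of all tested genes passing and 9.85% at the unadjusted limit.

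**Figure D2:**
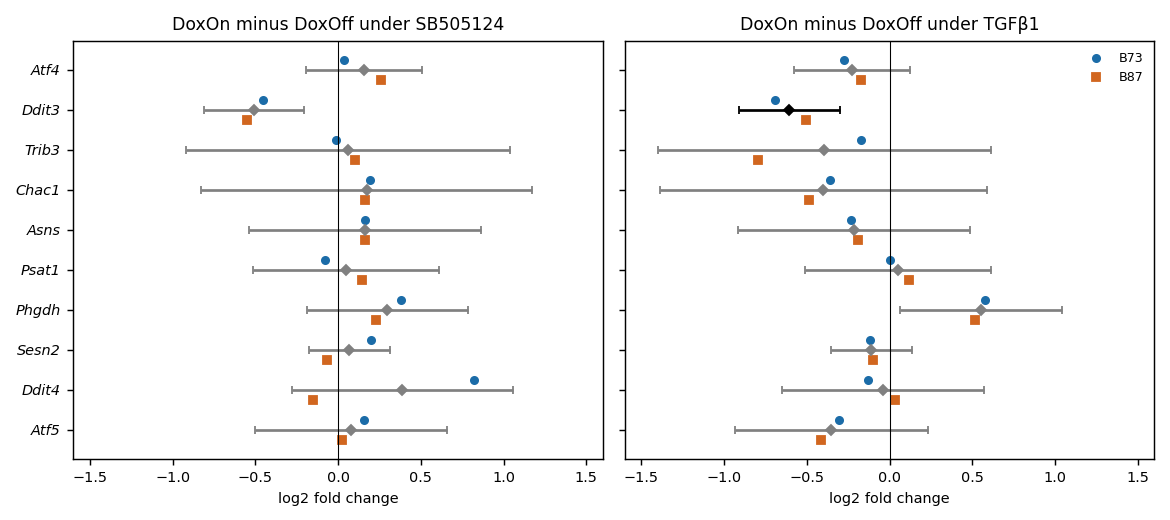
Log2 fold change of DoxOn over DoxOff (horizontal axis) for the 10 genes under SB505124 (left) and TGFβ1 (right). Diamonds with bars are the edgeR estimate and its 95% interval, black where the adjusted p was under 0.05, circles are line B73 and squares line B87; *Ddit3* under TGFβ1, at -0.61, is the one that passed.

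The wider pathway was described with 73 further genes in 7 lists, of which 71 passed the filter on low counts. Under SB505124, 0 of 71 passed the test for a Dox effect, with 1 higher and 6 lower at an unadjusted p under 0.05 (edgeR), beside 5.04% and 7.61% of all tested genes. Under TGFβ1, 3 of 71 passed as higher and 2 as lower with Dox, shares near the 3.28% and 3.52% of all tested genes, and the median log2 fold change was -0.02. None of the 12 enzymes of serine, glycine, proline and one-carbon metabolism and none of the 14 cytosolic aminoacyl-tRNA synthetases passed under either treatment. At an unadjusted p under 0.05, 1 of the enzymes was higher under SB505124 and 1 of the synthetases under TGFβ1. Values were above 0 in 12 of the 12 enzymes under SB505124, with a median of 0.25, and in 9 of 12 under TGFβ1, with a median of 0.10, while 50.5% and 48.9% of all tested genes were below 0.

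The 5 pathway genes that passed under TGFβ1 are given as single genes. *Ppp1r15a* (GADD34), the inducible phosphatase subunit that ends the response by dephosphorylating eIF2α, stood in TGFβ1 cells at 46.4 (B73) and 38.6 CPM (B87) with Dox and 82.1 and 73.1 CPM without, a log2 fold change of -0.87 ± 0.097 (adjusted p = 0.00501). *Vegfa*, the angiogenic growth factor, stood at 123 and 118 CPM with Dox and 310 and 250 CPM without (-1.21 ± 0.089, adjusted p = 0.0014). Both were lower with Dox, as *Ddit3* was, without overlap of the groups, which 22.3% of tested genes shared.
*Stc2*, a secreted glycoprotein, stood at 5.18 and 6.38 CPM with Dox and 1.99 and 2.14 CPM without (1.48 ± 0.23, adjusted p = 0.0152). *Nfe2l2*, which encodes the antioxidant regulator NRF2, stood at 249 and 239 CPM with Dox and 148 and 150 CPM without (0.71 ± 0.089, adjusted p = 0.00741). *Vldlr*, a lipoprotein receptor, stood at 41.2 and 43.8 CPM with Dox and 21.0 and 29.8 CPM without (0.76 ± 0.16, adjusted p = 0.0375). All 3 were higher with Dox in both lines. The difference of the Dox effect between treatments passed for *Vegfa* and *Nfe2l2* among the 71 genes. These genes also responded to TGFβ1. The log2 fold changes over SB505124 in DoxOff and DoxOn cells were 1.25 and 0.76 for *Ppp1r15a* and 2.22 and 0.84 for *Vegfa*. They were -4.01 and -2.69 for *Stc2*, -1.66 and -0.66 for *Nfe2l2* and -1.33 and -0.84 for *Vldlr*.

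Other stress arms were represented by 3 comparison lists, and none of their genes passed for Dox under either treatment. Of 15 genes of the ATF6 and XBP1 arms of the unfolded protein response, 2 were higher at an unadjusted p under 0.05 under SB505124 and 1 under TGFβ1 (edgeR), beside 5.04% and 12.3% of all tested genes, with medians of 0.13 and 0.07. Of 9 mitochondrial chaperones and proteases, 0 reached an unadjusted p under 0.05 under either treatment, with medians of -0.0042 and -0.11. Of 13 mitochondrially encoded mRNAs 7 were tested, and 4 of these were higher under SB505124 and 2 under TGFβ1 at the same limit, against the same shares of all tested genes, with medians of 0.30 and -0.09. Under SB505124 the values of all 7 were above 0, from 0.11 to 0.65. The rest of the 13, among them *mt-Co2*, *mt-Co3* and *mt-Atp6*, did not pass the filter on low counts, and the reason was not tested. Mitochondrially encoded mRNAs carry short or no poly(A) tails and vary with poly(A) selection, whose part in these values was not tested.

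TGFβ1 was next compared with SB505124 within each Dox state, in contrasts that share libraries with those for Dox. In DoxOff cells 2 of the 10 passed as higher, *Ddit4* and *Atf4*, and 2 as lower, *Psat1* and *Phgdh*, beside 15.6% of tested genes higher and 17.6% lower. In DoxOn cells 1 passed as higher, *Ddit4*, and 1 as lower, *Psat1*, beside 6.96% and 6.24%. *Ddit4* rose 5.65-fold in DoxOff cells (log2 2.50 ± 0.28, adjusted p = 0.000965) and 4.20-fold in DoxOn cells (log2 2.07 ± 0.28, adjusted p = 0.00522). *Psat1* fell by 0.95 ± 0.24 on the log2 scale in each (adjusted p = 0.0231 and 0.0455). *Atf4* rose by 0.49 ± 0.15 and *Phgdh* fell by 0.65 ± 0.21 in DoxOff cells (adjusted p = 0.0419 and 0.0499), both near the threshold. Of the 10, *Ddit4* alone passed with a rise over 2-fold, beside 5.62% of tested genes in DoxOff and 3.11% in DoxOn cells, and none passed with a fall over 2-fold. When the cell line was left out of the edgeR model, 0 members passed as lower in either Dox state and *Ddit4* alone passed as higher.

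The response to TGFβ1 was also compared between the lines, a comparison added after the values per line had been seen. *Asns* went in B73 from 143 to 173 CPM without Dox and went from 160 to 147 CPM with Dox, whereas in B87 it went from 172 to 97.7 CPM without Dox and from 193 to 85.5 CPM with Dox. *Chac1* had log2 fold changes of 1.17 (DoxOff) and 0.62 (DoxOn) in B73 and of -0.24 and -0.89 in B87. *Trib3* had log2 fold changes of 0.30 and 0.14 in B73 and of -0.76 and -1.66 in B87. *Chac1* and *Trib3* thus had opposite signs in the lines in both Dox states, which 3.76% of tested genes had in that direction. In 7 of the 10 genes the TGFβ1 effect was lower in B87 than in B73 within both Dox states, beside 31.6% of tested genes.

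A term for the difference of the TGFβ1 effect between the lines passed in 0 of the 14301 genes (edgeR, 0%), with 1198 genes, 8.38%, at an unadjusted p under 0.05. The same unadjusted limit was met by 7 of the 10, all with a lower effect in B87, as 4.29% of tested genes had: *Asns*, *Atf5*, *Psat1*, *Phgdh*, *Chac1*, *Trib3* and *Atf4*. By that p, *Asns* ranked 1 of 14301 genes (-1.08 ± 0.093, adjusted p = 0.340), *Atf5* ranked 11 (-0.87 ± 0.11), *Psat1* 20 (-0.83 ± 0.12), *Phgdh* 21 (-0.71 ± 0.10), *Chac1* 25 (-1.48 ± 0.22), *Trib3* 58 (-1.43 ± 0.27) and *Atf4* 216 (-0.45 ± 0.12). *Ddit4* differed in the other direction, by 0.69 ± 0.30, and *Ddit3* and *Sesn2* by -0.06 ± 0.18 and 0.06 ± 0.14. *Nup62*, which overlaps *Atf5* on the opposite strand, differed in the same direction as *Atf5* (-0.40 ± 0.11, rank 264). Its part in the *Atf5* counts was not tested. The members at the unadjusted limit were thus the 3 amino acid enzymes, the transcription factors *Atf4* and *Atf5*, and *Chac1* and *Trib3*. Each line contributed 1 library per condition, and a difference between the lines cannot be told apart from one between the cultures used.

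**Figure D3:**
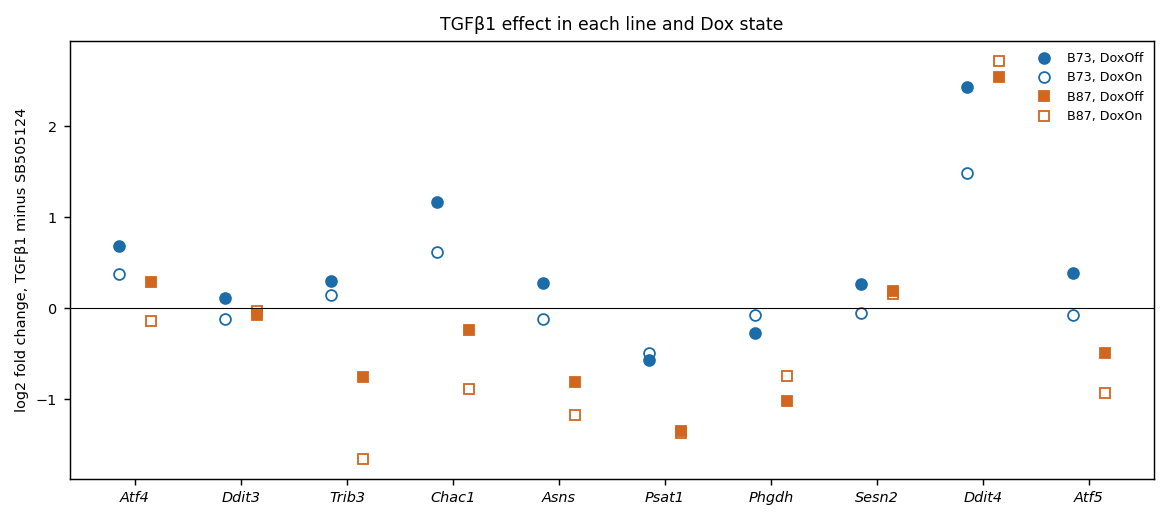
Log2 fold change of TGFβ1 over SB505124 (vertical axis) for each of the 10 genes, with circles for B73 and squares for B87, filled for DoxOff and open for DoxOn; each point compares 1 library with 1 library. The B87 points of *Atf4*, *Trib3*, *Chac1*, *Asns*, *Psat1*, *Phgdh* and *Atf5* lie below both B73 points, and all 4 points of *Ddit4* lie between 1.49 and 2.72.

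The other genes of the pathway were described in the same way. Of the 71, 53 had a lower TGFβ1 effect in B87, 29 of them at an unadjusted p under 0.05, and the median difference was -0.25 on the log2 scale, beside 0.00384 over all tested genes, of which 49.4% were below 0. The difference was below 0 in 12 of 12 enzymes of serine, glycine, proline and one-carbon metabolism, with a median of -0.93, 10 of them at an unadjusted p under 0.05. It was below 0 in 14 of 14 tRNA synthetases, with a median of -0.40, 11 of them at that limit. Of all tested genes, 4.29% were below 0 at that limit. Of the 100 genes with the smallest p in the table, which are 0.699% of those tested, 6 were members and 15 were other pathway genes, among them the serine phosphatase *Psph*, the folate enzymes *Aldh1l2* and *Mthfd2*, and the cystine transporter *Slc7a11*; 0 came from the 31 tested genes of the comparison lists. *Nupr1*, a stress-inducible co-factor, was among those 15 in the opposite direction (0.99 ± 0.14, rank 19). In the ATF6 and XBP1 arms 12 of 15 values were above 0, with a median of 0.12. The mitochondrial chaperones and proteases went the same way as the pathway, with 8 of 9 below 0. Their median was -0.068, and 1 was lower at an unadjusted p under 0.05 (edgeR). All 7 tested mitochondrially encoded mRNAs were above 0, with a median of 0.12. None of these genes passed at the adjusted threshold. The lists were chosen with earlier results of these data known, and the comparison was added after values had been seen. The counts are therefore a description and not independent evidence on the pathway.

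**Figure D4:**
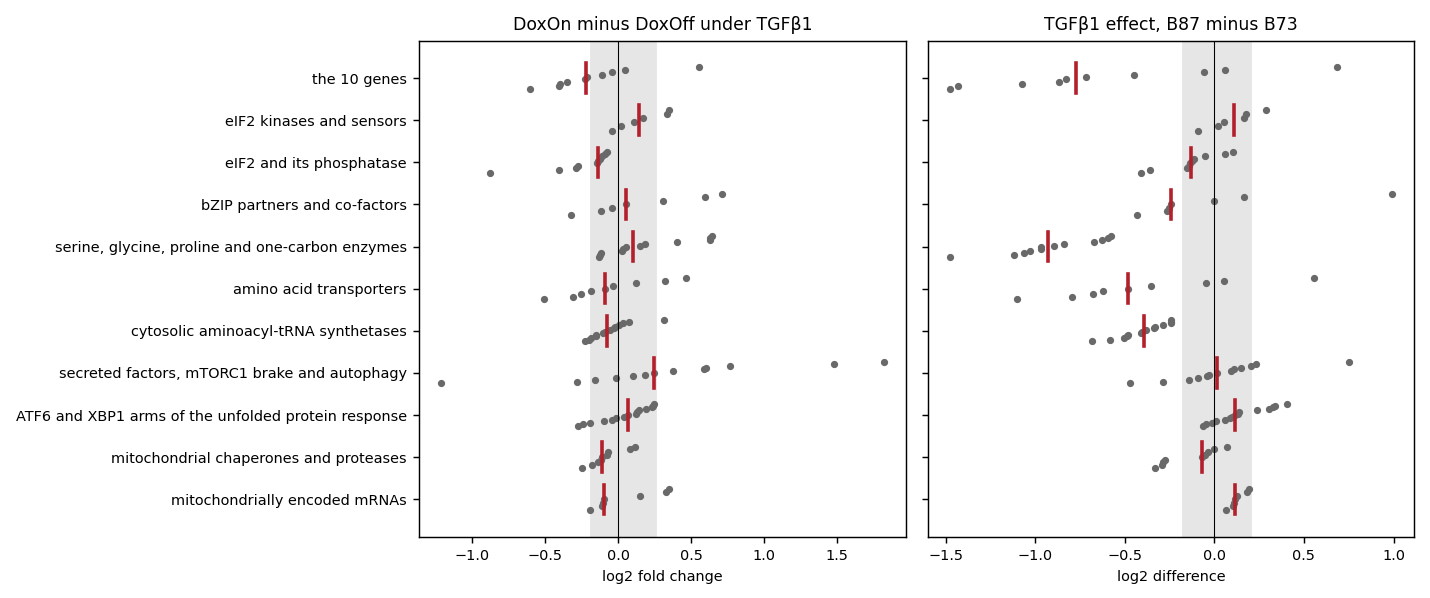
Log2 fold change of DoxOn over DoxOff under TGFβ1 (left) and log2 difference of the TGFβ1 effect, B87 minus B73 (right), with 1 point per tested gene of each list and a vertical bar at the list's median; the grey band runs from the lower to the upper quartile of all 14301 tested genes (-0.18 to 0.26 left, -0.18 to 0.21 right) and vertical spread within a list only separates points. On the right, all 12 metabolic enzymes and all 14 tRNA synthetases lie below 0, whereas on the left the list medians lie between -0.22 and 0.25.

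The lines also differed in level. Over the 4 conditions *Ddit3* was lower in B87 than in B73 by 0.35 ± 0.090 on the log2 scale (adjusted p = 0.0395), the one member of the 10 to pass, beside 9.68% of tested genes lower and 8.92% higher in B87. *Col1a1*, the chief fibroblast marker by level, stood at 0.349 to 5.10 CPM in B73 and at 25.9 to 627 CPM in B87. It was higher in B87 (log2 6.75 ± 0.19, adjusted p = 1.08e-05), and lower with Dox under SB505124 (-2.08 ± 0.25, adjusted p = 0.0136) and TGFβ1 (-1.78 ± 0.21, adjusted p = 0.00656). Its part in the results on Dox and on the lines was not tested.

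The 10 genes did not move as a single unit. On log2 CPM after subtracting each line's mean, 31 of 45 pairs were positively correlated over the 8 libraries, with a median Pearson r of 0.16 and a range from -0.95 (*Psat1* and *Ddit4*) to 0.97 (*Trib3* and *Atf5*). These points share their libraries and conditions, and the values are a description. *Atf5*, *Chac1*, *Trib3* and *Asns* followed the mean of the 10 most closely (r = 0.93, 0.93, 0.87 and 0.83), *Ddit4* went against it (-0.21), and *Atf4* mRNA was between (0.54). Each of the 10 is itself part of that mean, which raises its r. Of 11090 other genes, the 5 whose pattern was most like that mean were *Sars* (r = 0.98), *Serbp1* (0.97), *Nfatc1* (0.93), *Aars* (0.93) and *Sssca1* (0.93); *Sars* and *Aars*, which encode the seryl- and alanyl-tRNA synthetases, are on the pathway lists. *Sars* stood at 288 to 293 CPM in the 4 SB libraries, at 308 and 362 CPM in TGFβ1 libraries of B73 and at 227 and 253 CPM in those of B87. In bulk RNA, fewer cells with a high level and less mRNA in each cell cannot be told apart.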

How the data were processed

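The authors made stranded poly(A) RNA-seq libraries (TruSeq, single-end reads of 75 bases), trimmed them with Trimmomatic 0.36, aligned them to GRCm38 (mm10) with STAR 2.5.3a and counted reads per gene with featureCounts 1.6.3, versions being those in the submitters' processing notes. The deposited values are raw counts per gene and library, without pooling. Settings for strand and multiply aligned reads were not given in the sources used here.

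The deposited counts were tested with edgeR 4.0.16 in R 4.3.3: TMM scaling, filterByExpr (14301 genes kept), a quasi-likelihood fit of all 8 libraries with the 4 groups and the cell line, and Benjamini-Hochberg adjustment over all tested genes. A gene passed at an adjusted p under 0.05. Contrasts were DoxOn minus DoxOff, TGFβ1 minus SB505124 and B87 minus B73. Standard errors are the log2 fold change over the square root of F. CPM used TMM library sizes, and fold changes per line a prior count of 2. Groups and lines were taken from sample titles. The genotype of the mice is not reported here in full. The line pairs the libraries: deviations of the same line from the group means correlated between groups (median r 0.758), so it was kept as the replicate block. With 1 library per line and condition, p-values for Dox and TGFβ1 rest on how far the responses of 2 lines disagreed. For the terms between the lines they rest on conditions of the same 2 cultures, which are not replicates of a line. Floors cover counting error only. DESeq2 1.42.0, other scalings, filters, models without the line and each line alone were tried. Named genes were the 10 members, *Smad4*, up to 4 passing genes per further list with the same sign in both lines, and the 5 most alike in pattern; *Psph*, *Aldh1l2*, *Mthfd2*, *Slc7a11*, *Nupr1*, *Col1a1* and overlapping genes were named after their values were seen. Members and lists were chosen with earlier results of these data known.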

Additional observations from a re-analysis of the deposited data

Results flagged for a closer look

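In 4 of the 10 genes the Dox effect was above 0 in both lines under SB505124 and below 0 in both under TGFβ1, a pattern seen in 5.82% of tested genes; 0 of the 4 passed the test of the difference. The Dox effect under TGFβ1 minus that under SB505124 was -0.38 for *Atf4* (edgeR, adjusted p = 0.594), -0.57 for *Chac1* (0.806), -0.38 for *Asns* (0.820) and -0.43 for *Atf5* (0.736) on the log2 scale. Among the other pathway genes, the same difference passed for *Nfe2l2* (1.00, adjusted p = 0.0496) and *Vegfa* (-1.38, adjusted p = 0.0206). The TGFβ1 effect had opposite signs in the lines, above 0 in both Dox states of B73 and below 0 in both of B87, for *Trib3* (B87 minus B73 -1.43, adjusted p = 0.461) and *Chac1* (-1.48, adjusted p = 0.35).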

How the results depend on the processing

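No member passed for Dox under SB505124 in any alternative run, and the difference of the Dox effect between treatments likewise passed in 0. Under TGFβ1, 0 members passed as lower, against 1, with total counts, without the replicate block in edgeR or DESeq2, with the 4 libraries alone, with a line-by-TGFβ1 term (added after the data were seen) and with a 2-fold limit; 1 passed as higher, against 0, with no filter, the 4 libraries alone and the line-by-TGFβ1 term. For TGFβ1 in DoxOff cells, 1 rather than 2 passed as higher with total counts, without the block in either tool and with the 2-fold limit; as lower, 1 passed without the block in DESeq2, and 0 without it in edgeR and with the 2-fold limit. In DoxOn cells, 0 rather than 1 passed as lower without the block in edgeR and with the 2-fold limit, and 2 with no filter. These alternatives to the TGFβ1 comparisons were added after the data were seen, and the causes were not tested. Over all tested genes, leaving out the block in edgeR moved the calls from 228 to 2 under SB505124 and from 973 to 43 under TGFβ1.

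With total counts the members' median log2 Dox effect was 0.161 under SB505124 and -0.101 under TGFβ1, and signs turned for *Sesn2* (0.00968) and *Ddit4* (0.077) with Dox under TGFβ1, *Ddit3* with TGFβ1 in DoxOff (-0.113) and *Sesn2* in DoxOn (-0.00598). *Chac1* with TGFβ1 in DoxOn turned without the block, to 0.0283 in DESeq2 and 0.0171 in edgeR.

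With 1 line left out there is no test. The members' median then ran from 0.124 to 0.158 (Dox under SB505124), -0.202 to -0.183 (Dox under TGFβ1), -0.315 to -0.193 (their difference), -0.816 to -0.0591 (TGFβ1 in DoxOn) and, turning sign, -0.366 to 0.289 (TGFβ1 in DoxOff, -0.0217 with both lines). Signs differed between the lines, from B73 or B87 alone, with Dox under SB505124 for *Trib3* (-0.0112 to 0.103), *Psat1* (-0.0787 to 0.144), *Sesn2* (-0.0669 to 0.197) and *Ddit4* (-0.151 to 0.822) and under TGFβ1 for *Ddit4* (-0.13 to 0.0296). They differed with TGFβ1 in DoxOff cells for *Ddit3* (-0.0794 to 0.113), *Trib3* (-0.759 to 0.30), *Chac1* (-0.241 to 1.17), *Asns* (-0.816 to 0.279) and *Atf5* (-0.491 to 0.386), and in DoxOn cells for *Atf4* (-0.14 to 0.372), *Trib3* (-1.66 to 0.14), *Chac1* (-0.89 to 0.621) and *Sesn2* (-0.0478 to 0.156). *Chac1* and *Trib3* had the fewest counts, from 90 and 97 in their lowest libraries, and the largest standard errors of the Dox effect among the 10.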
